A study of Mus musculus with 6 samples.

Results

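The 36 genes described here are endocrine identity genes of the pancreatic islet. They were chosen by name, with earlier results of these data known. The choice was made from hormones, transcription factors and secretion genes that mark beta, alpha, delta, PP and epsilon cells. All 36 were found among 21887 protein-coding genes of mouse GRCm38. For each gene, ATAC-seq peaks were sought within 1000 bp of either gene end, in the gene body, and in a flank of 50 kb outside the gene. ATAC-seq uses the Tn5 transposase to tag open chromatin. Each library's peak list gives the places where tags were called as enriched.

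The islets came from mice of 16 weeks and were exposed ex vivo to adenovirus for 48 h. Control-GFP (Con+Ad-GFP) is wildtype islets with a GFP virus, and knockout-GFP (βRicKO+Ad-GFP) is islets of BetaRicKO mice with the same GFP virus. Knockout-Acsl4 (βRicKO+Ad-Acsl4) is BetaRicKO islets with a virus carrying Acsl4. In BetaRicKO mice the beta cells lack Rictor, which the kinase complex mTORC2 needs. All 3 groups therefore carry an adenovirus, and there is no group of wildtype islets with Acsl4 virus. The sources used here name no Cre driver, and they do not say if a group's 2 libraries are from different mice, so p-values measure only the spread between these libraries. An islet holds several endocrine cell types, and 50 islets were lysed per library. In such a mixed sample, fewer cells that are open at a site and less opening per cell cannot be told apart.

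The 6 lists differed in length and kind. They held from 525 peaks in knockout-Acsl4 1 to 5874 in knockout-Acsl4 2, and their read depth is unknown. The share of peaks within 1000 bp of a coding gene end was 67.2% to 75.5% in both knockout-GFP libraries and control-GFP 1. By contrast it was 35.8% in knockout-Acsl4 1, 21.7% in control-GFP 2 and 5.29% in knockout-Acsl4 2, so 1 control-GFP list and both knockout-Acsl4 lists stand apart. Each peak carries the authors' value, read as a −log10 q-value, and values are placed here only within their own list, as a percentile. In knockout-Acsl4 2, 2244 peaks share the value 1.54, which lies at percentile 36.5.

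Islet cell types are built by a cascade of transcription factors. Neurog3 starts the endocrine programme, Pdx1, Nkx6-1, Nkx2-2, Neurod1, Pax6 and Isl1 set and keep the endocrine fates, and Mafa matures the beta cell. Beta cells then sense glucose through the transporter encoded by Slc2a2 and close the potassium channel made of Abcc8 and Kcnj11, which releases insulin. Open chromatin at such genes is known to lie both at promoters and at enhancers that can be far from the gene, which is why the flanks were examined beside the gene ends.

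Most endocrine identity genes had no peak at either end. A gene-end peak was found for 3 of 36 members in at least 1 library (8.33%, 95% exact Clopper-Pearson interval 1.75 to 22.5), namely Mafa, Nkx6-1 and Pcsk2, where 24.5% of all coding genes had such a peak. A peak in the flank, with none at a gene end in any library, was found for 15 members (41.7%), against 36.3% of all coding genes. A further 2 members, Abcc8 and Chga, had a peak in the gene body alone, as did 4.74% of all coding genes, which makes 17 with a body or flank peak and none at an end (47.2%, against 41.1%). Counted whether or not an end was marked, 6 members had a body peak (16.7%, against 12.8%) and 16 a flank peak (44.4%, against 51.3%). In all, 20 members (55.6%, against 65.6%) had a peak of some kind. The other 16 (44.4%) had none at the ends, in the body or in the flank in any library, against 34.4% of all coding genes. Of the 33 members without a gene-end peak, 15 had a flank peak (45.5%), against 48.1% of the coding genes without one. The gene-end share of the members was thus below that of all genes. With all lists and a 50 kb flank, their share with a distal peak and no gene-end peak was near that of all genes. This second comparison changed direction with the setting. It was 30.6% against 22.4% with a flank of 25 kb, and 36.1% against 21.1% without peaks at other coding gene ends. It was 19.4% against 26.2% over control-GFP 1 and both knockout-GFP lists, and 8.33% against 19.0% from peaks found in another library. As members were chosen with earlier results known, these shares are description only.

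**Figure D1:**
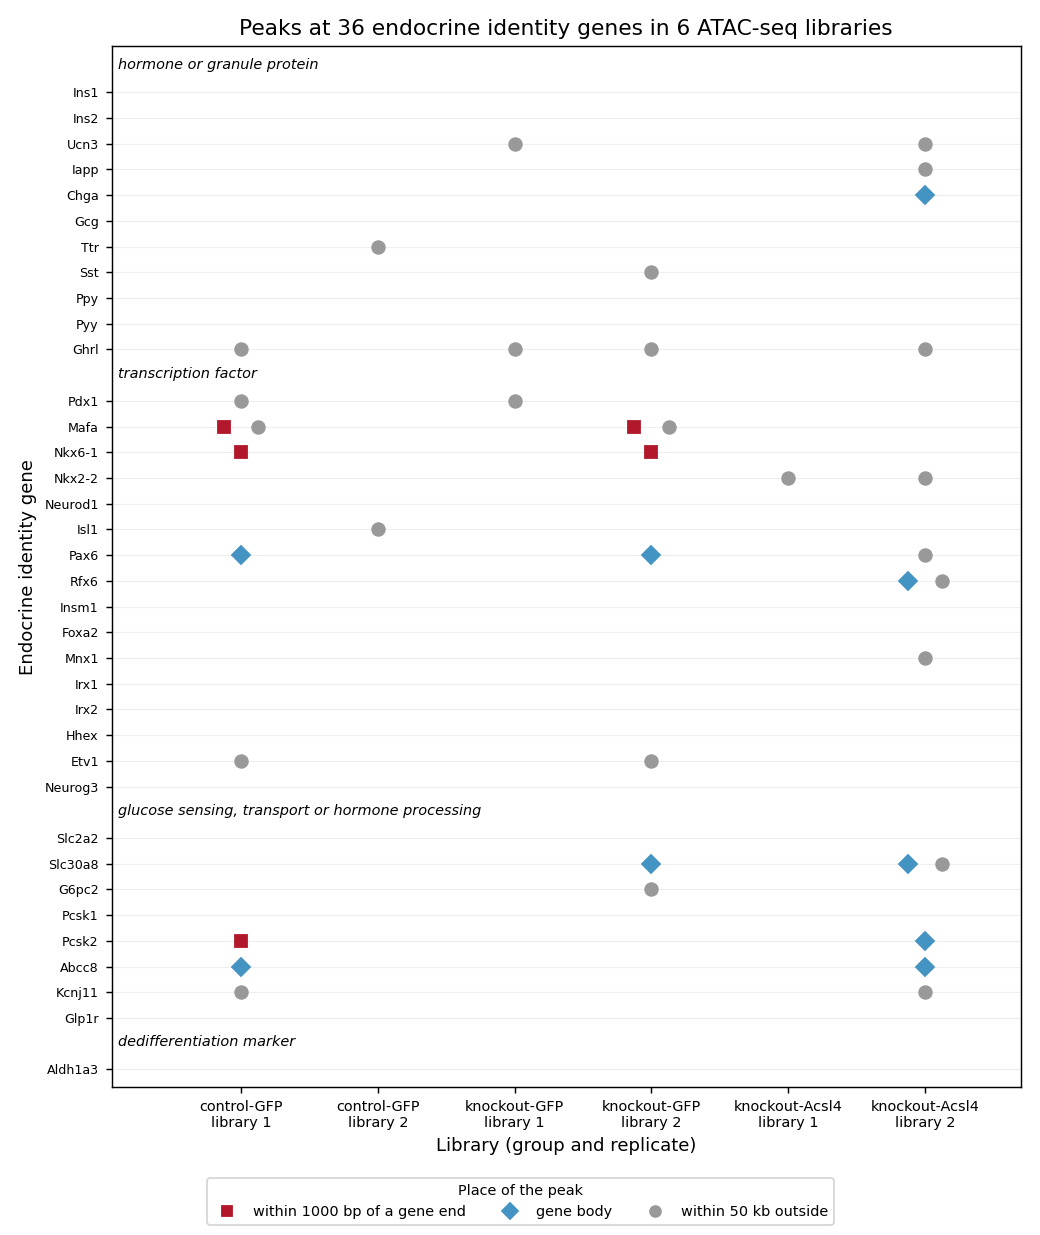
Place of every peak at the 36 endocrine identity genes (rows, grouped by role) in the 6 libraries (columns, by group and replicate). Squares mark peaks within 1000 bp of a gene end, diamonds peaks in the gene body and circles peaks within 50 kb outside. Squares appear for 3 genes, in control-GFP 1 and knockout-GFP 2, and 16 rows are empty.

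The gene-end peaks came from control-GFP 1 and knockout-GFP 2. Control-GFP 1 had 3 marked members (8.33%, same interval), against 16.7% of all coding genes. Knockout-GFP 2 had 2 (5.56%, 0.68 to 18.7), against 17.3%. Both backgrounds lie inside the members' intervals. The other 4 libraries marked 0 of 36, which allows a share of up to 8.33% when 3 counts are taken as the limit for a count of 0 (the exact interval ends at 9.74%). The background there was 2.00% in control-GFP 2, 8.20% in knockout-GFP 1, 1.02% in knockout-Acsl4 1 and 1.58% in knockout-Acsl4 2. In each of these libraries the background lies under the share that a count of 0 allows. A lower share among the members was therefore not detectable in those 4. Intervals and such limits cover counting error only.

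**Figure D2:**
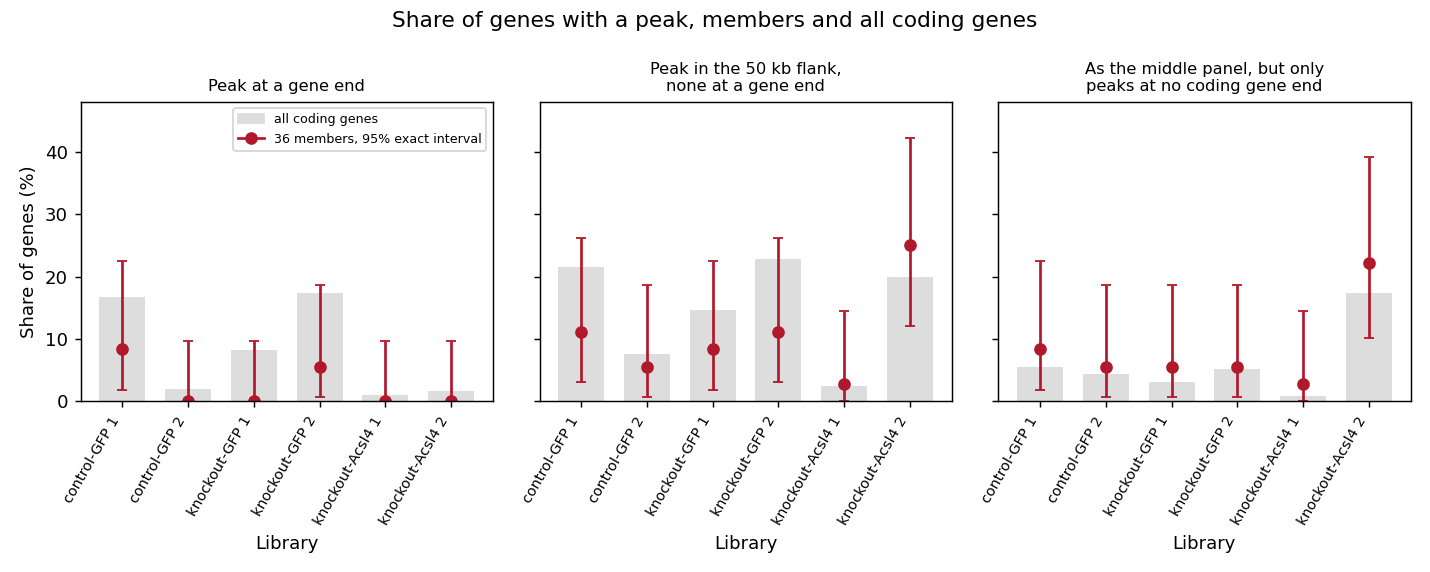
Share of genes with a peak (%) in each of the 6 libraries, as grey bars for all 21887 coding genes and red points for the 36 members, with 95% exact intervals. The panels show peaks at a gene end, peaks in the 50 kb flank of genes with no gene-end peak, and the same after leaving out peaks at any coding gene end. At gene ends the members lie at 8.33% against 16.7% in control-GFP 1 and at 5.56% against 17.3% in knockout-GFP 2.

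Among the 16 transcription factors, 2 had a gene-end peak. Mafa (chr15:75745501-75748321), which drives insulin transcription in mature beta cells, had the peak of the highest percentile of any member. Its peak spanned the higher end of the gene at chr15:75748285-75748508 in control-GFP 1, with a value of 7.11 at percentile 61.1. In knockout-GFP 2 it lay at chr15:75748284-75748566, with a value of 21.0 at percentile 95.9, rank 174 of 4257. The other 4 libraries had no Mafa peak at an end, so each GFP group had 1 library with it and 1 without. Mafa also had a flank peak in each of these libraries, at different places. That of control-GFP 1 lay 33.8 kb above the gene inside Zc3h3 (value 3.71), and that of knockout-GFP 2 lay 41.2 kb below it at the end of Rhpn1 (value 2.19, percentile 3.72).

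Nkx6-1 (chr5:101659184-101664711), a repressor of non-beta fates, was the second. The peak lay upstream of its start, 580 bp away at chr5:101665291-101665459 in control-GFP 1 (value 4.47, percentile 36.1). In knockout-GFP 2 it lay 637 bp away at chr5:101665348-101665477 (value 11.3, percentile 81.7). The peaks of the 2 libraries overlapped, and no other library had a peak within 50 kb of Nkx6-1.

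Pcsk2 (chr2:143546133-143816284), which encodes the prohormone convertase PC2, was the third member with a gene-end peak and the only one of the 8 genes of glucose sensing, transport or hormone processing. The peak was called in control-GFP 1 alone, at chr2:143545817-143545959, 174 bp upstream of the listed start, with a value of 3.83 at percentile 27.6. It is the single member peak that overlapped a promoter sequence of the RefSeq promoter table (GRCm38.p6) belonging to the member itself. The table lists 27 of the 36 members and not Mafa. The sequence is shown because it is the one listed promoter of a member that a peak covers in part. It runs along the + strand at chr2:143545883-143546182, from 250 bases before the start to 50 after it, with the 77 bases inside the peak in capitals:
Pcsk2 promoter: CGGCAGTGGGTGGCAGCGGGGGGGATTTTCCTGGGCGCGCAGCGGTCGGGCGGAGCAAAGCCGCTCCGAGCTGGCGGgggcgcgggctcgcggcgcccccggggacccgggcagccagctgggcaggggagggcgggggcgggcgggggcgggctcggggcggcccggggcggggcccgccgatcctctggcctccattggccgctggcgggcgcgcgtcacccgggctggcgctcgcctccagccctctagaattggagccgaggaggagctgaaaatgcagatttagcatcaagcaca
The window held 7 matches of the GC box GGGCGG on either strand (35.7% of 32851 listed promoters hold at least 1), 2 of CCAAT (37.4%) and 1 of the E-box CANNTG (72.3%). It held 0 matches of the homeodomain core TAATTA (5.29% of promoters hold it), of the forkhead core TGTTTAC (3.65%), of the CRE TGACGTCA (1.79%) and of the TATA box TATAAA (13.6%). Knockout-Acsl4 2 had no peak at either Pcsk2 end but 2 in the gene body, 44.0 and 57.2 kb from the start, both at the value 1.44 and percentile 9.46.

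Of the other 14 transcription factors, 7 had a peak away from their ends. Pax6 (chr2:105668896-105698410), among the factors that set and keep endocrine fates, had a peak 6.56 kb inside the gene at chr2:105675454-105675631 in control-GFP 1 (value 4.58, percentile 37.2). In knockout-GFP 2 an overlapping peak lay at chr2:105675349-105675592 (value 9.18, percentile 71.8). Exons and introns were not analysed here. In knockout-Acsl4 2 the only peak of Pax6 was elsewhere, 44.3 kb downstream inside the neighbouring gene Elp4, at chr2:105742720-105743027, with a value of 3.96 at percentile 92.9, the highest percentile of any member peak in that library.

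Etv1 (chr12:38780082-38870483), an ETS factor, had its peak just outside the window of 1000 bp. It lay 1275 bp upstream of the start in control-GFP 1, at chr12:38778641-38778807 (value 5.60, percentile 47.3), and 1350 bp upstream in knockout-GFP 2, at chr12:38778617-38778732 (value 4.89, percentile 35.6). The peaks overlapped, and the other 4 libraries had none. With a window of 3000 bp, Etv1 and Slc30a8 joined the genes with a gene-end peak, which made 5 of 36 (13.9%), against 28.6% of all coding genes.

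Pdx1 (chr5:147270097-147275848), the master factor of pancreas and beta cell, had no peak at its ends or in its body. Control-GFP 1 had a peak 11.8 kb downstream at chr5:147287625-147287803 (value 3.02, percentile 18.1). Knockout-GFP 1 had a different one, 23.7 kb downstream at chr5:147299557-147299774 (value 2.92, percentile 24.0). Neither place was called in a second library. Isl1, a LIM homeodomain factor, had a single peak, 6.58 kb downstream in control-GFP 2 at chr13:116291537-116291689. Its value of 4.71 lay at percentile 84.5, the higher of that library's 2 member peaks.

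Nkx2-2 (chr2:147176485-147195434), which represses alternative islet fates, had peaks in both knockout-Acsl4 libraries and in no other. They were not the same place. In knockout-Acsl4 1 the peak lay 48.2 kb upstream at chr2:147243637-147243726, with a value of 1.34 at percentile 0.667, and in knockout-Acsl4 2 it lay 33.6 kb upstream at chr2:147229058-147229214, with a value of 2.35 at percentile 68.3. Both fell inside the noncoding gene Nkx2-2os. Nkx2-2 was the single member with a peak in both knockout-Acsl4 libraries and neither knockout-GFP library (1 of 36, 2.78%, against 0.251% of all coding genes), and also neither control-GFP library (0.256% of all coding genes). With the flank at 25 kb, with the better 50% of each list, or with all lists cut to at most 525 peaks, no member had this pattern. The share of all coding genes was not counted for these settings.

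Rfx6 and Mnx1 were marked in knockout-Acsl4 2 alone. Rfx6 (chr10:51677760-51730429), a winged-helix factor of islet development, had a peak at chr10:51670638-51670869, 6.89 kb outside its lower end (value 1.44), a peak in its body at chr10:51705429-51705794 (value 1.36) and a peak 37.7 kb downstream at chr10:51768178-51768451 (value 1.54). Mnx1, a homeodomain factor of the early pancreas bud, had a peak 14.2 kb downstream at chr5:29459439-29459672 (value 1.54). All 4 peaks lay at percentile 36.5 or lower. The 7 transcription factors without a peak in any library were Neurod1, Insm1, Foxa2, Irx1, Irx2, Hhex and Neurog3.

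None of the 11 hormone and granule protein genes had a gene-end peak. Ghrl (chr6:113716119-113719911), the ghrelin gene of epsilon cells, had a flank peak in the most libraries, 4 of 6. It was the same region in both knockout-GFP libraries and control-GFP 1, 19.0 kb downstream, with values of 2.65, 10.7 and 4.10 at percentiles 18.7, 78.9 and 32.5. That region lies at the start of the neighbouring gene Tatdn2, so it is a distal peak of Ghrl only by distance. In knockout-Acsl4 2 the Ghrl flank held another peak, 24.7 kb upstream at the end of Atp2b2, a plasma membrane calcium pump (value 1.54).

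The same holds for G6pc2 (chr2:69211073-69227993) of the glucose sensing group, a glucose-6-phosphatase subunit of beta cells that works against glucokinase. Its single peak, at chr2:69206143-69206280 in knockout-GFP 2 (value 10.9, percentile 80.1), lay 4.79 kb upstream of G6pc2 and at the start of Spc25, a kinetochore protein. The RefSeq promoters of both neighbours (GRCm38.p6) are shown because they are the sequences these 2 distal calls cover, with the bases inside the knockout-GFP 2 peak in capitals. The Spc25 window is on the - strand at chr2:69206164-69206463 (117 bases covered) and the Tatdn2 window on the + strand at chr6:113696800-113697099 (187 bases covered):
Spc25 promoter: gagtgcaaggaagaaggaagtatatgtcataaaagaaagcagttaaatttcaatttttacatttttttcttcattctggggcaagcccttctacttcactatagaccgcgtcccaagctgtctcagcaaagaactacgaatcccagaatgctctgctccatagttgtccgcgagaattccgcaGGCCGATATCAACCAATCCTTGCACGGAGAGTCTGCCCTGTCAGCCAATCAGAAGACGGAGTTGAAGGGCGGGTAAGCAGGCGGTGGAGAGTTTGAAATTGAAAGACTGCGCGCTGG
Tatdn2 promoter: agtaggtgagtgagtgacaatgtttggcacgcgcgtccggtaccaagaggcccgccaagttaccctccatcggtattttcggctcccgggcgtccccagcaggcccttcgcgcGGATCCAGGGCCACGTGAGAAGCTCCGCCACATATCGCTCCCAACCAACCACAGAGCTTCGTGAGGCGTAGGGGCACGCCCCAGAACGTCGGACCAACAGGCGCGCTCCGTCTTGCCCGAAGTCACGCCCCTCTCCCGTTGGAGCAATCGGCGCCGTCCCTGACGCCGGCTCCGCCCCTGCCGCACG
Spc25 held 2 matches of CCAAT and 1 of the GC box, and Tatdn2 held 1 of the GC box and 1 of the E-box. Both windows held 0 matches of the other 4 motifs named for Pcsk2. A match or its absence describes the letters of the window and no more.

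The other hormone genes with a peak had it in 1 or 2 libraries. Ucn3 (chr13:3940688-3945349), a maturity marker of beta cells, had a peak 36.8 kb upstream in knockout-GFP 1 at chr13:3982191-3982468 (value 3.94, percentile 44.8). In knockout-Acsl4 2 its peak lay 30.3 kb downstream inside Net1, at chr13:3910119-3910403 (value 2.66, percentile 80.0). Iapp, which encodes the amyloid peptide released with insulin, had a peak in knockout-Acsl4 2, 16.3 kb downstream inside Slco1a5 at chr6:142320103-142320333 (value 2.66). Chga, the granule protein chromogranin A, had a peak in the gene body in knockout-Acsl4 2, 3.32 kb from its start at chr12:102558259-102558635 (value 2.54, percentile 73.7). Sst, the delta cell hormone somatostatin, had a peak 46.6 kb downstream in knockout-GFP 2 at chr16:23842875-23843013, with a value of 1.56 at percentile 1.21. Ttr, a thyroid hormone carrier that alpha cells express, had a peak 21.1 kb below the gene in control-GFP 2, with a value of 1.53 at percentile 3.99. The last 2 rank near the bottom of their lists.

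Insulin itself was unmarked. Ins1 and Ins2, both insulin genes of the mouse, the glucagon gene Gcg, and Ppy and Pyy, hormones of PP cells, had no peak within 50 kb in any library, controls included. The defining hormone genes therefore give no check of the tissue from these lists. Ins2 lay just outside the flank, with its nearest peak 50.8 kb away in knockout-GFP 1, while the farthest peak inside a flank was that of Nkx2-2 at 48.2 kb. The nearest peak to Ins1 was 69.6 kb away, in control-GFP 2, and the nearest to Gcg 131.0 kb, in control-GFP 1.

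Among the genes of glucose sensing, transport and hormone processing, the potassium channel pair shared a peak. Abcc8 (chr7:46104523-46180039), the sulfonylurea receptor, and Kcnj11 (chr7:46097123-46100952), the channel pore, are neighbours. A peak inside Abcc8 at chr7:46122990-46123195 in control-GFP 1 (value 3.41, percentile 22.5) lies 22.0 kb above Kcnj11. An overlapping peak at chr7:46122816-46123022 was called in knockout-Acsl4 2 (value 2.50, percentile 71.5). It is the only member peak of knockout-Acsl4 2 that another library held, and these are 2 calls of 1 region, counted for both genes. Slc30a8 (chr15:52295553-52335798), the zinc transporter of insulin granules, had a body peak in knockout-GFP 2 at chr15:52316317-52316453 (value 4.0, percentile 25.9). In knockout-Acsl4 2 it had a body peak 1070 bp from its lower end (value 1.54) and a flank peak 4.19 kb above the gene at chr15:52339990-52340380 (value 3.18, percentile 86.6). Slc2a2, Pcsk1, which encodes the convertase PC1/3, and the incretin receptor gene Glp1r had no peak, nor did Aldh1a3, a marker of dedifferentiated beta cells.

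**Figure D3:**
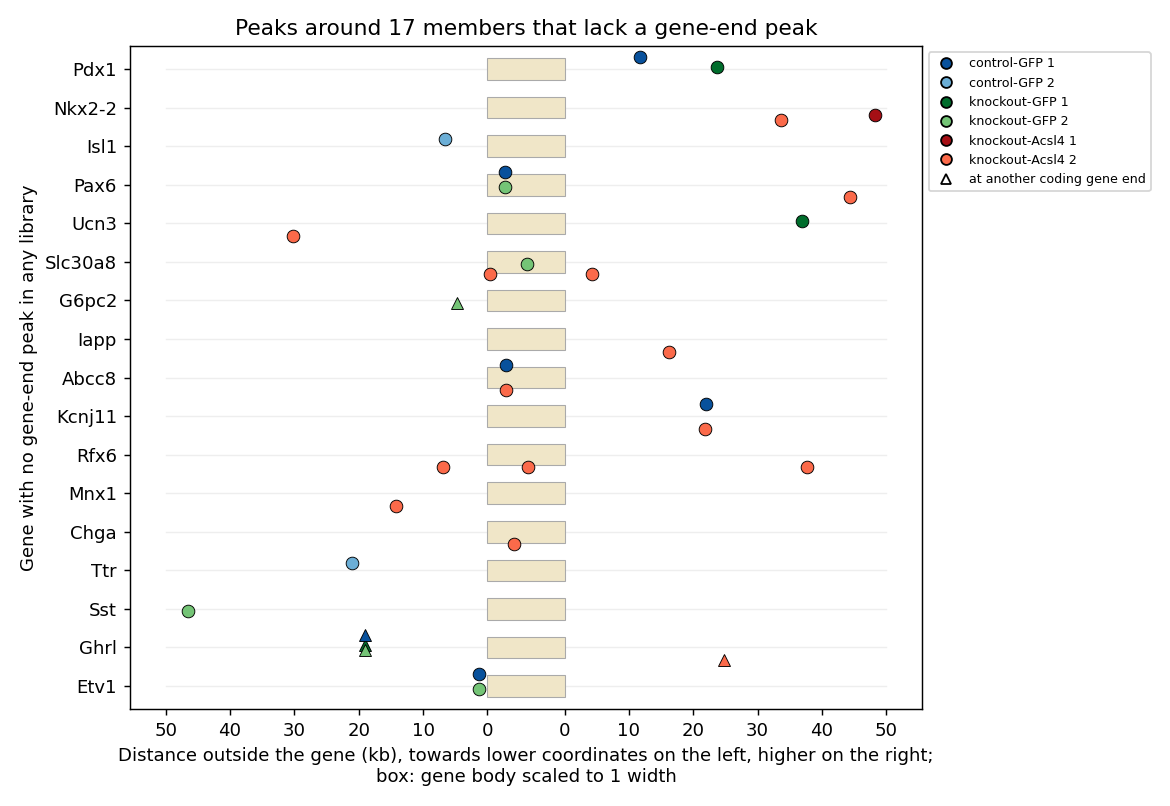
Peaks around the 17 members that lack a gene-end peak in every library and have a peak elsewhere (rows). The horizontal axis gives the distance outside the gene in kb, with each gene body scaled to the same box, colours mark the library and triangles mark peaks at the end of another coding gene. The triangles belong to Ghrl and G6pc2, and the peaks of Rfx6, Mnx1, Iapp and Chga are all from knockout-Acsl4 2.

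Few distal places were called more than once. The members' 39 distinct peaks, 90 to 497 bp wide, formed 32 regions, of which 26 were called in 1 library, 5 in 2 and 1 in 3. Control-GFP 1 and knockout-GFP 2, which belong to different groups, shared 5 of the 6 recurrent regions, at Mafa, Nkx6-1, Pax6, Etv1 and Ghrl. Of the member peaks of control-GFP 1, 6 of 9 were found in another library (66.7%), close to the 63.6% of all its peaks. In knockout-GFP 2 it was 5 of 9 (55.6%, against 68.6% of all peaks) and in knockout-GFP 1 it was 1 of 3 (33.3%, against 76.6%). Control-GFP 2 had 0 of 2 (28.6% of all its peaks) and knockout-Acsl4 1 had 0 of 1 (69.7%). In knockout-Acsl4 2 it was 1 of 15 (6.67%, against 3.0% of all peaks). Restricted to peaks found in another library, 3 members had a distal peak and no gene-end peak (Etv1, Ghrl and Kcnj11; 8.33%, against 19.0% of all coding genes).

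Among the libraries, knockout-Acsl4 2 marked the most members distally. It had a flank peak at 9 of 36 members with no gene-end peak (95% exact interval 12.1 to 42.2%), against 20.0% of all coding genes. Control-GFP 1 and knockout-GFP 2 had 4 each (11.1%), against 21.5% and 22.8%, knockout-GFP 1 had 3 (8.33%), against 14.6%, control-GFP 2 had 2 (5.56%), against 7.50%, and knockout-Acsl4 1 had 1 (2.78%), against 2.38%. Over control-GFP 1, knockout-GFP 1 and knockout-GFP 2 alone, 7 members had a distal peak and no gene-end peak (19.4%, against 26.2% of all coding genes), where all 6 lists gave 15. Leaving out knockout-Acsl4 2 alone gave 10, since Pax6, Rfx6, Mnx1, Iapp and Slc30a8 had a flank peak in that library and no other. The share of all coding genes was not counted for this setting. Within knockout-Acsl4 2, 8 of the 15 member peaks lay at or below percentile 50, and the median percentile of its member peaks was 36.5. The part that the low gene-end share of this list has in these counts was not tested.

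**Figure D4:**
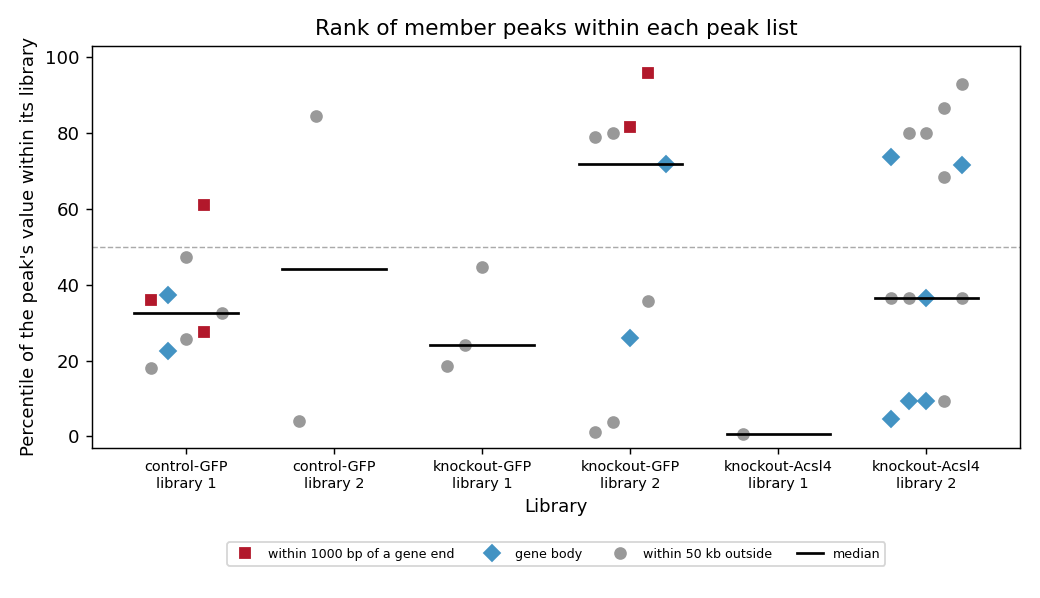
Percentile of each member peak's value within its own library (vertical axis) for the 6 libraries, with squares for gene-end peaks, diamonds for gene-body peaks, circles for flank peaks and a black line for the median. Medians run from 0.667 in knockout-Acsl4 1, which has a single peak, to 71.8 in knockout-GFP 2, and 1 of the 9 peaks of control-GFP 1 lies above percentile 50.

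Few of the members' flank peaks lay at the end of another gene. Of their 26 distinct flank peaks, 6 (23.1%) lay within 1000 bp of another coding gene's end, against 59.5% of the flank peaks of all coding genes. By library the counts were 1 of 5 in control-GFP 1 (76.1% over all genes), 1 of 3 in knockout-GFP 1 (75.9%), 3 of 5 in knockout-GFP 2 (79.6%) and 1 of 10 in knockout-Acsl4 2 (10.3%). The members lie in gene-poor surroundings. A member had a median of 1 other coding gene with an end inside it or its flank, where all coding genes had a median of 3, and 27.8% of members had none, against 11.7%. Members were also shorter, with a median length of 5822 bp against 17169 bp. Without the peaks at other coding gene ends, 13 members had a distal peak and no gene-end peak (36.1%, against 21.1% of all coding genes). In control-GFP 1, knockout-GFP 1 and knockout-GFP 2 that count was 3, 2 and 2 (background 5.51%, 3.16% and 5.23%), and in knockout-Acsl4 2 it was 8 (22.2%, background 17.3%). Control-GFP 2 had 2 (background 4.35%) and knockout-Acsl4 1 had 1 (background 0.868%). In all 6 libraries the background lies inside the members' 95% exact interval, which for knockout-Acsl4 2 runs from 10.1 to 39.2%. A higher share among the members was therefore not detected in any single library.

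The number of marked members did not separate the groups. Loss of Rictor was examined by comparing knockout-GFP with control-GFP. The number of members with a gene-end peak was 1 ± 1.41 in knockout-GFP and 1.5 ± 2.12 in control-GFP (SD, n = 2 each, two-sided exact permutation p = 1). The number with a distal peak and no gene-end peak was 3.5 ± 0.707 and 3 ± 1.41 (exact permutation p = 1, n = 2 each). The libraries of the groups overlapped in both counts. Added Acsl4 was examined by comparing knockout-Acsl4 with knockout-GFP. Knockout-Acsl4 had 0 members with a gene-end peak in both libraries (exact permutation p = 1 against either GFP group). It had 5 ± 5.66 with a distal peak and no gene-end peak (exact permutation p = 1 against knockout-GFP and against control-GFP, n = 2 each), a mean of 1 and 9 members. With 2 libraries against 2 no such test can give a p below 0.333, so a difference of any size would not have passed. Counted with any kind of peak, the libraries had 9 and 2 members in control-GFP (background 40.2% and 11.4% of all coding genes), 3 and 8 in knockout-GFP (24.1% and 41.8%) and 1 and 12 in knockout-Acsl4 (3.87% and 27.6%). The group means were 5.5 ± 4.95, 5.5 ± 3.54 and 6.5 ± 7.78 (exact permutation p = 1 for each pair, n = 2 each). In every group the members' count was low in the library with the shorter list and higher in the other. Any pair of these comparisons shares a group of libraries.

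Apart from Nkx2-2, no member separated the groups. A peak in both knockout-GFP libraries and neither control-GFP library was found for 0 of 36 members, where 2.31% of all coding genes had it, and the reverse for 0 (0.676%). A peak in both knockout-GFP libraries and neither knockout-Acsl4 library was found for 0 members (12.7% of all coding genes), and in both control-GFP and neither knockout-Acsl4 library for 0 (4.10%). Each count of 0 allows a share of up to 8.33% by the limit of 3 counts, or 9.74% by the exact interval. The 12.7% lies above both. Without knockout-GFP 1 the count was 5, under a rule that is looser for all coding genes too. The shares of all coding genes with a library left out were not counted. The count against control-GFP was 3 without knockout-GFP 1, its reverse was 3 without control-GFP 2, and both control-GFP against knockout-Acsl4 gave 4 without control-GFP 2. Without knockout-Acsl4 1, 8 members had a peak in knockout-Acsl4 2 and in neither knockout-GFP library. Against control-GFP it was 7. Knockout-Acsl4 2 alone had a peak of some kind at 27.6% of all coding genes. Ghrl was the single member with a peak in both knockout-GFP libraries, and it also had one in control-GFP 1 and knockout-Acsl4 2.

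For the 16 unmarked members, which by definition have no peak within 50 kb, the nearest peak in any library lay between 50.8 kb (Ins2) and 325.0 kb (Glp1r) away, and for 11 of them within 100 kb. Slc2a2 (52.8 kb), Pcsk1 (55.4 kb) and Hhex, the delta cell factor (58.6 kb), were nearest after Ins2, and Neurod1 (110.0 kb), Gcg, Irx1 and Irx2 (142.0 and 176.0 kb), factors of alpha cells, were among the farthest. With a flank of 100 kb, 28 members had a distal peak and no gene-end peak (77.8%, against 51.8% of all coding genes), and Irx1, Irx2, Glp1r, Gcg and Neurod1 still had none. Over all 36 members, the median distance from a gene to its nearest peak was 177.0 kb in control-GFP 1 and 132.0 kb in knockout-GFP 2, against 88.6 and 83.1 kb for all coding genes. In knockout-Acsl4 2 it was 127.0 kb, against 136.0 kb. Control-GFP 2 had 462 kb against 469 kb, knockout-GFP 1 had 275 kb against 225 kb and knockout-Acsl4 1 had 1840 kb against 1920 kb.

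Further gene lists differed in their counts. Of 53 genes in 4 lists, 8 had a gene-end peak in at least 1 library (15.1%, against 24.5% of all coding genes), and 25 had a flank peak and no gene-end peak (47.2%, against 36.3%). Among 16 genes of secretory granules and exocytosis 5 had a gene-end peak, Pam, Cpe and Ero1b in control-GFP 1, Snap25 in knockout-GFP 2 and the calcium sensor Syt7 in both. Among 18 further islet transcription factors the single one was Foxo1, in control-GFP 2. Of 8 genes kept low in beta cells, 2 were marked in knockout-GFP 2, the lactate carrier Slc16a1 and Acot7, and of 11 genes of stimulus-secretion coupling, 0. A flank peak with no gene-end peak was found for 9 of the 11 stimulus-secretion genes, 7 of the 18 transcription factors, 6 of the 16 granule and exocytosis genes and 3 of the 8 genes kept low in beta cells. Those marked in 1 library are named after their values were seen. Of 49 markers of acinar, ductal, endothelial, stromal, immune and Schwann cells, 2 had a gene-end peak (4.08%), 1 ductal marker in knockout-GFP 2 and the stromal marker Lum in knockout-Acsl4 2. The acinar, endothelial, immune and Schwann lists had 0 markers with a gene-end peak in every library. A flank peak with no gene-end peak was found for 21 of the 49 markers (42.9%), with 7 of 13 acinar, 5 of 8 immune, 3 of 8 endothelial, 3 of 4 Schwann, 2 of 8 ductal and 1 of 8 stromal. The share of these markers of other cell types was thus near the 41.7% of the endocrine identity genes. These lists do not show which cell types the libraries hold.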

How the data were processed

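Open chromatin was measured by ATAC-seq in 6 libraries, 2 in each of 3 groups, grouped by their titles. Per the labels' protocols, 50 islets were lysed per library, amplified with 12 cycles and sequenced as paired reads of 50 bp. Each library came as 1 list of peaks without a header, deposited by the authors with a value per peak. The deposited value was read as a −log10 q-value, because no list goes below 1.3, which is 0.05 on that scale. No header states the unit. Per the submitters' processing notes, the tools were MACS2 2.1.1, BWA 0.7.10, SAMtools, Trimmomatic and FastQC, given there with no roles. These notes name hg38 and GRCh38 for a mouse study. Coordinates are 1-based and were treated as GRCm38, because up to 75.5% of a list's peaks lay at coding gene ends of that assembly. The share was 5.29% in knockout-Acsl4 2, so this reason rests on the lists with high shares.

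Genes came from a RefSeq table of GRCm38.p6 without exons. Strand was known for the 27 members in the RefSeq promoter table, and "above" and "below" refer to coordinates for the rest. An overlap of at least 1 bp counted. Gene-end peaks took precedence over body and flank, so "distal" means over 1000 bp from the gene's ends and within 50 kb outside. Overlapping peaks were merged into regions. Member counts were compared between groups by two-sided exact permutation tests over libraries. Members, roles and lists were chosen with earlier results of these data known. All 36 members are named, in full where a peak was found, and genes of the further lists by rule where marked in 2 libraries (Syt7); those marked in 1 library were named after their values were seen. Whether same-numbered libraries were paired could not be told (see the dependence on processing). The peak classes were tested on simulated data, with 200 of 200 placed peaks given their class. Alternatives were a stricter value, equal list lengths, other windows, flanks and overlaps, and leaving out libraries. Peaks tied across a cut by value were left out, so a list cut to its better 50% or to equal length can be shorter. Python 3.11.15, pandas 2.3.3 and SciPy 1.17.1 were used.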

Additional observations from a re-analysis of the deposited data

How the results depend on the processing

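Every difference between groups missed the threshold under every alternative run, as it must with 2 libraries a group, and the smallest exact permutation p of any alternative was 0.333. Leaving out 1 library at a time gave these ranges for the number of members, with no share of all coding genes counted beside them. The gene-end difference ran from -2 to 1 for knockout-GFP minus control-GFP, from -2 to 0 for knockout-Acsl4 minus knockout-GFP and from -3 to 0 for knockout-Acsl4 minus control-GFP. The difference in members with a distal peak and no gene-end peak ran from -0.5 to 1.5, from -2.5 to 5.5 and from -2 to 6. The last 2 turned negative without knockout-Acsl4 2. The count of members with a gene-end peak in any library ran from 2 to 3 and that with a distal peak and none at an end from 10 to 15, the lowest without knockout-Acsl4 2. The pattern counts ran from 0 to 3 for both knockout-GFP and neither control-GFP, 0 to 3 for its reverse, 0 to 5 for both knockout-GFP and neither knockout-Acsl4, 0 to 4 for both control-GFP and neither knockout-Acsl4, and, without knockout-Acsl4 1, up to 8 and 7 for knockout-Acsl4 against knockout-GFP and control-GFP, from 1.

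The gene-end difference of knockout-GFP minus control-GFP was -0.5 as reported and turned to 0.5 with the better 50% of each list and at equal list lengths. Its distal counterpart, 0.5 as reported, turned to -0.5 at equal list lengths, with a flank of 25 kb and without peaks at another coding gene end. For knockout-Acsl4 minus knockout-GFP the distal difference turned from 1.5 to -3 with a flank of 100 kb. The cause was not tested. Members with a gene-end peak numbered 3 as reported, 1 at equal list lengths and 5 with a window of 3000 bp. Members with a distal peak and no gene-end peak numbered 15 as reported, 9 with the better 50%, 3 at equal list lengths, 28 with a flank of 100 kb, and, with alternatives chosen after seeing the data, 7 in control-GFP 1, knockout-GFP 1 and knockout-GFP 2 alone and 3 from peaks found in another library. Shares of all coding genes were not counted with the better 50% or at equal list lengths. The knockout-Acsl4 pattern of Nkx2-2 fell from 1 to 0 against both GFP groups with the better 50%, at equal list lengths and with a flank of 25 kb. With a flank of 100 kb the knockout-GFP pattern against control-GFP and its reverse rose from 0 to 1 each. For pattern counts under these alternatives the shares of all coding genes were not counted.

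In a replicate block of same-numbered libraries the differences are those of the unpaired comparison, -0.5, -1 and -1.5 at gene ends and 0.5, 1.5 and 2 for distal peaks, and 2 pairs cannot give an exact p below 0.5. Over all coding genes the within-group deviations of same-numbered libraries correlated at -0.195 for knockout-GFP and control-GFP, 0.0436 for knockout-Acsl4 and knockout-GFP and 0.00101 for knockout-Acsl4 and control-GFP. These correlations cannot show if the libraries were paired, because the lists within each group also differ in length. Crossing the numbers left 0 differences past the threshold. Read depth is unknown, and the number of called peaks ran from 525 to 5874. The part that either has in these counts was not tested.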

Other observations

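The flank shares of all coding genes moved with the number of neighbours. Among 2566 coding genes with no other coding gene end inside them or their flank, 3.59% had a flank peak in control-GFP 1 and 2.34% in knockout-GFP 2. Among 3166 genes with over 5 such neighbours the shares were 53.7% and 61.6%. In knockout-Acsl4 2 they were 16.4% and 22.3%. Of the 36 endocrine identity genes, 10 had no neighbour, 20 had 1 or 2, 6 had 3 to 5 and 0 had more. Of the 10 without a neighbour, 1 had a flank peak in control-GFP 1 (Etv1, against 3.59% of all such genes). In control-GFP 2 it was 1 (Isl1, against 4.21%), and in knockout-GFP 1 it was 0 (against 1.68%). In knockout-GFP 2 it was 1 (Etv1, against 2.34%), and in knockout-Acsl4 1 it was 1 (Nkx2-2, against 1.17%). Knockout-Acsl4 2 had 2 (Nkx2-2 and Slc30a8, against 16.4%). The 20 members with 1 or 2 neighbours had 3 in control-GFP 1 (against 17.9%) and 1 in control-GFP 2 (6.24%). They had 2 in knockout-GFP 1 (9.32%), 2 in knockout-GFP 2 (17.2%), 0 in knockout-Acsl4 1 (1.98%) and 5 in knockout-Acsl4 2 (19.7%). The 6 with 3 to 5 neighbours had, in the same order, 1 (34.5%), 0 (7.92%), 1 (19.4%), 2 (38.4%), 0 (2.56%) and 2 (21.4%). These counts were not tested.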
